A study of Mus musculus with 9 samples.

Results

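The genes described here are 35 regulators and executioners of apoptosis, matched by gene name among the 38940 genes of an RNA-seq table of mouse embryonic stem cells. They comprise 5 pro-survival genes of the BCL2 family, 3 effectors, 8 BH3-only genes, 2 further BCL2 homologues, 5 genes of mitochondrial release and the apoptosome, 5 inhibitor of apoptosis (IAP) genes, 3 caspases other than Casp9, and 4 adaptors of death receptor signalling. All 35 had a row in the table. The libraries fall into 3 groups of 3. Double KO cells are described as deleted for both genes (Yap Δ/Δ Taz Δ/Δ). Taz KO cells are described as lacking Taz and retaining floxed Yap (Yap f/f Taz Δ/Δ), and control cells as floxed at both genes (Yap f/f Taz f/f). The genotype field of the double KO libraries names the Taz KO genotype (Yapfl/fl/Taz-/-), so groups were taken from titles and descriptions. Every group grew in N2B27 medium on fibronectin with the MEK inhibitor PD0325901 (0.4 µM), the GSK3 inhibitor CHIR99021 (3 µM) and Lif (4 ng/ml). Cre-ERT2 driven by a CAG promoter was carried on a piggyBac transposon and was activated with 4-OHT, a tamoxifen metabolite, at 500 nM. Whether control cells were given the transgene or 4-OHT is not stated, nor is the number of clones or cultures behind a group, so p-values reflect how far the sequenced libraries spread, which may be a technical spread only.

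YAP and TAZ are transcriptional co-activators that act mainly through the TEAD DNA-binding factors and are restrained by the Hippo kinases. In the mitochondrial route of apoptosis, BH3-only proteins respond to stress and occupy the pro-survival BCL2 proteins or engage the effectors directly, after which BAX and BAK permeabilise the outer mitochondrial membrane. Released cytochrome c joins APAF1 in the apoptosome, which activates Casp9, while IAP proteins restrain caspases or their upstream signalling and are themselves countered by DIABLO and HTRA2. Death receptors act through the adaptors FADD, TRADD and RIPK1. Pluripotent stem cells are known for entering mitochondrial apoptosis readily after DNA damage.

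Each library held 19.1 to 24.0 M recovered reads. Values are FPKM, fragments per kilobase scaled by depth, and group values are means ± SD over 3 libraries. Yap1 averaged 4.25 ± 0.334 FPKM in double KO, 18.3 ± 0.346 in Taz KO and 18.4 ± 0.573 in control cells. Wwtr1, which encodes TAZ, averaged 13.9 ± 0.772, 10.8 ± 1.58 and 12.1 ± 0.847 FPKM in the same order, and a value over the whole gene cannot check the deletion of an exon. All 8 embryonic stem cell markers examined were abundant, with sums of 1777 to 1870.3 FPKM in double KO, 1846 to 1960.2 in Taz KO and 1844 to 1963 in control libraries. Of 18 markers of other cell types, 14 averaged under 1 FPKM. Summed levels of the 5 fibroblast markers ran from 3.17 to 10.9 FPKM in double KO, 1.77 to 5.89 in Taz KO and 2.15 to 4.12 in control libraries; the collagen genes Col1a1, Col1a2 and Col3a1 stayed at or below 0.278, and Thy1 held most of the sum at 2.64 to 9.6, 1.38 to 4.56 and 1.75 to 3.33 FPKM. The 2 blood markers summed to 11.5 to 29.8, 7.65 to 20.9 and 9.14 to 18.4 FPKM in the same order, nearly all from Cd68, with Ptprc at or below 0.0149. Sums were 1.72 to 3.55, 1.62 to 3.07 and 2.03 to 2.84 FPKM for 5 primitive endoderm markers, 8.17 to 9.49, 7.48 to 9.64 and 6.41 to 7.46 for 4 trophectoderm markers, mostly Eomes, and 0.184 to 0.239, 0.426 to 0.866 and 0.719 to 1.31 for 2 neuroectoderm markers. Trophectoderm sums were thus higher and neuroectoderm sums lower in every double KO library than in every control library, and the part of such markers in the results was not tested. Libraries numbered 2 stood apart from those numbered 1 and 3 in every group. Genes on chromosomes 6, 8 and 14 were shifted upward as a whole in both KO groups, which touches 7 of the members.

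The mitochondrial arm was dominated by very few transcripts in every group. Bax and Mcl1 were the most abundant members, averaging 194 and 101 FPKM over the 9 libraries, and no other member averaged above Birc5 at 32.0 FPKM. A mean of at least 1 FPKM was reached by 30 of 35 members, which entered the test. Bcl2, Bcl2l10, Bik, Casp8 and Cflar lay below that level. The member nearest the limit, Hrk, averaged 1.13 FPKM in double KO, 0.898 in Taz KO and 1.09 in control cells. Without double KO, the group in which it was highest, Hrk would have fallen just below the limit. Every other tested member averaged above 1 FPKM in each group.

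**Figure D1:**
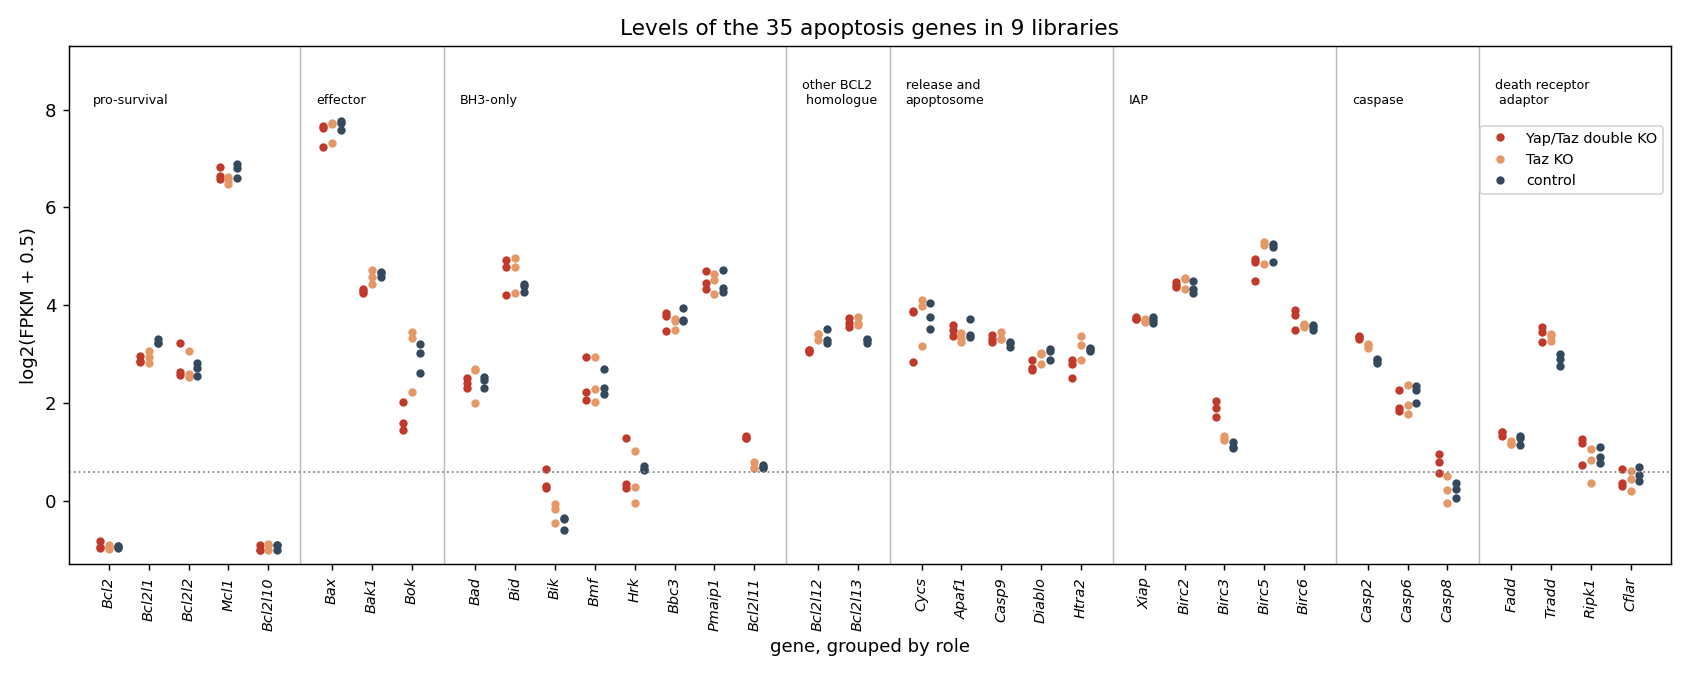
Level of each of the 35 genes in every library, as log2(FPKM + 0.5), ordered by role, with 3 points per group (double KO left, Taz KO middle, control right). The dotted line marks 1 FPKM; Bax and Mcl1 lie far above the rest, and Bcl2 and Bcl2l10 lie at the bottom in all 9 libraries.

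Loss of both Yap and Taz went with changes in both directions within the set. Against control, Bcl2l11, Bcl2l13, Birc3, Casp2 and Tradd rose, while Bcl2l1, Bak1, Bok and Bcl2l12 fell, in limma's moderated test on log2(FPKM + 0.5) with Benjamini-Hochberg adjustment over 11674 genes and a threshold of 0.05. These were 9 of 30 tested members (30.0%), against 25.3% of all tested genes. By direction, 16.7% of members were higher and 13.3% lower, against 12.4% and 12.9% of all genes. The median log2 fold change was 0.01 over the members and -0.02 over all tested genes. With the replicate number as a block, 5 members rose and 8 fell, Birc5, Diablo, Htra2 and Bax joining those that fell, against 24.2% and 28.1% of all genes, 52.4% in all; the sign for Bax turned under quantile normalisation. The blocked count was 43.3% of the members, so the share that changed was near that of all genes or below it. The 3 values of double KO did not overlap those of control for 12 of 30 members (40.0%), against 45.6% of all genes.

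**Figure D2:**
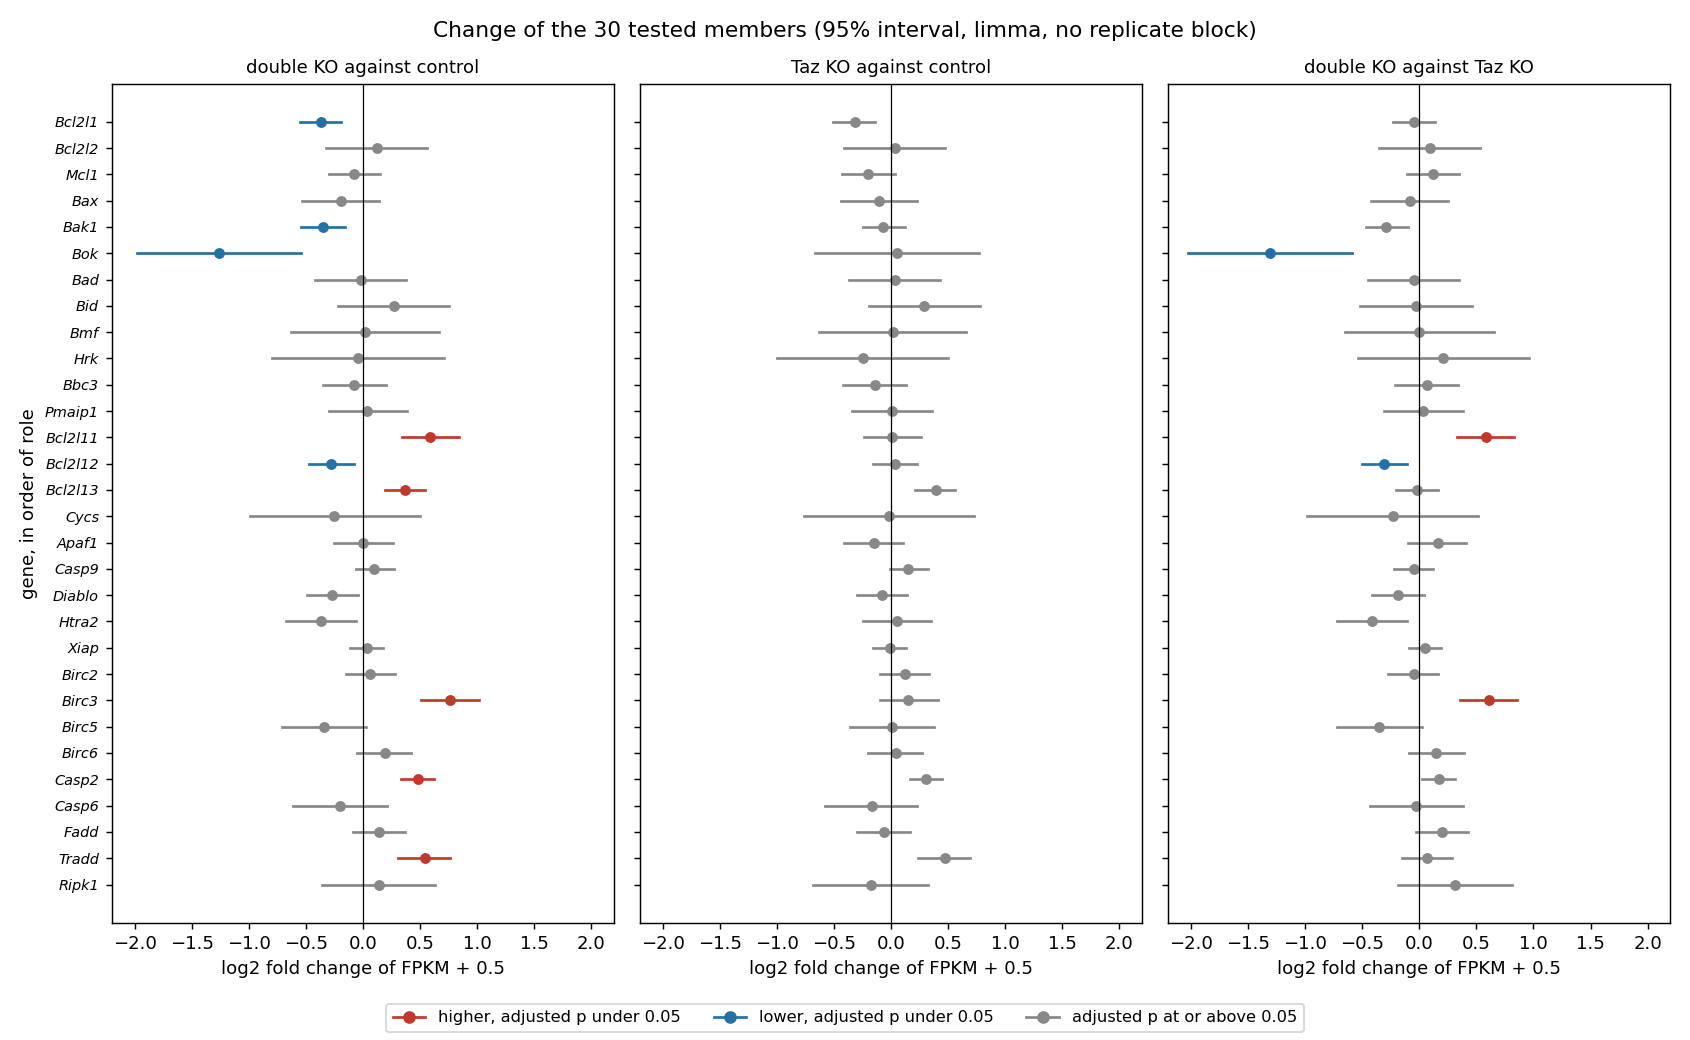
Log2 fold change of FPKM + 0.5 for the 30 tested members in 3 comparisons, with 95% intervals from limma without a replicate block. Red marks members that rose, blue those that fell and grey those past no threshold; the widest shift is that of Bok, at -1.26 in double KO against control and -1.31 against Taz KO.

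Among the 5 pro-survival genes, Bcl2l1 fell and 2 tested genes did not pass. Bcl2l1, which encodes BCL-XL (chromosome 2, 152780668 to 152831728, minus strand), had 6.78, 6.67 and 7.29 FPKM in double KO, 7.18, 6.51 and 7.81 in Taz KO, and 8.85, 8.91 and 9.47 in control libraries. All 6 KO libraries lay below all 3 control libraries, and the KO groups overlapped each other. The log2 fold change was -0.37 (SE 0.08, adjusted p = 0.0122) in double KO against control, called in all 9 fits that left out 1 library. Against control, Taz KO gave -0.32 (SE 0.08, adjusted p = 0.104), and 0.01 with the replicate block. Double KO and Taz KO differed by -0.05 (adjusted p = 0.747; 95% interval -0.23 to 0.14).

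Among the changed members with a promoter window, Bcl2l1 alone held a TEAD core. The letters GGAATG or their complement CATTCC, which cover both strands of the same core, were searched in RefSeq windows (GRCm38.p6) from 250 bases before to 50 bases after each gene start. A window was found for 30 of the 35 members, and 4 of those (13.3%), Bcl2l1, Mcl1, Hrk and Ripk1, held the core, against 16.6% of all 27025 symbols with a window. The stretches around it in Bcl2l1 (chr2:152831801-152831866, minus strand) and in Mcl1 (chr3:95658492-95658557, plus strand), the most abundant pro-survival gene, are shown for comparison, 5′ to 3′ on the gene's strand with the core in capitals.
Bcl2l1: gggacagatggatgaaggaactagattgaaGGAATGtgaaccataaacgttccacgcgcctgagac
Mcl1: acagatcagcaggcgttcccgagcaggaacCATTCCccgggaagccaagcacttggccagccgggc
The core began 108 bases before the Bcl2l1 start and 199 bases before the Mcl1 start, each counted from the start that defines the window. For Mcl1 that start differs from the GENCODE gene start at 95658788. A match to 6 letters is a description of these windows and no record of TEAD binding.

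Mcl1, a short-lived pro-survival protein on which early embryos depend, supplied 86.6 to 88.8% of the pro-survival FPKM sum in every library. Its values were 99.6, 113 and 94.5 FPKM in double KO, 94.2, 98.5 and 88.9 in Taz KO, and 117, 111 and 96.0 in control libraries. The groups overlapped. Against control it gave -0.08 (SE 0.10, adjusted p = 0.612) in double KO and -0.20 (adjusted p = 0.495) in Taz KO. Bcl2l2, which encodes BCL-W, ranged from 5.24 to 8.81 FPKM over all libraries and gave 0.12 (adjusted p = 0.687) in double KO against control. Bcl2, the founding member of the family, rested on 1 to 10 recovered reads per library, at 0.00637 to 0.0637 FPKM. Bcl2l10 had 0 or 1 read in every library, too few for a comparison.

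Of the 3 effectors, Bak1 and Bok fell in double KO against control. Bak1, whose product forms pores in the outer mitochondrial membrane, had 19.0, 19.7 and 18.6 FPKM in double KO, 25.8, 21.2 and 23.3 in Taz KO, and 24.7, 25.2 and 23.5 in control libraries. Every double KO value lay below every other. Its log2 fold change against control was -0.35 (SE 0.08, adjusted p = 0.0161), and the adjusted p went up to 0.0631 when 1 library was left out, the call being lost without double KO 1, double KO 3, control 1 or control 2. Double KO against Taz KO gave -0.29 (SE 0.08, adjusted p = 0.0516), and 0.0133 with the replicate block.

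Bok, an effector relative of BAX and BAK that is not held in check by the usual pro-survival proteins, changed most of all tested members. It had 2.53, 2.22 and 3.56 FPKM in double KO, 9.50, 4.16 and 10.4 in Taz KO, and 7.61, 5.61 and 8.77 in control libraries. All double KO values lay below all others, at 37.7% of the control mean and 34.6% of the Taz KO mean. The log2 fold change was -1.26 (SE 0.32, adjusted p = 0.021) against control and -1.31 (SE 0.32, adjusted p = 0.0291) against Taz KO. Library 2 was the lowest of each group, and the replicate block narrowed the standard error to 0.16. Without the block, the call against control was lost when double KO 1, double KO 2, control 1 or control 3 was left out (adjusted p up to 0.0725). Against Taz KO it was made in 3 of 9 such fits, those without Taz KO 2, control 2 or control 3 (adjusted p up to 0.116 in the others).

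Bax, the most abundant effector, had 201, 149 and 196 FPKM in double KO, 212, 159 and 208 in Taz KO, and 216, 192 and 212 in control libraries. Library 2 was again the lowest of each group, and the groups overlapped. Within each replicate number the double KO value was below the control value, by -0.19 on the log2 scale on average. That difference did not pass without the block (SE 0.15, adjusted p = 0.364) and passed with it (SE 0.06, adjusted p = 0.0347). Quantile normalisation turned its sign, to 0.05 (adjusted p = 0.646), so no direction is given for Bax.

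**Figure D3:**
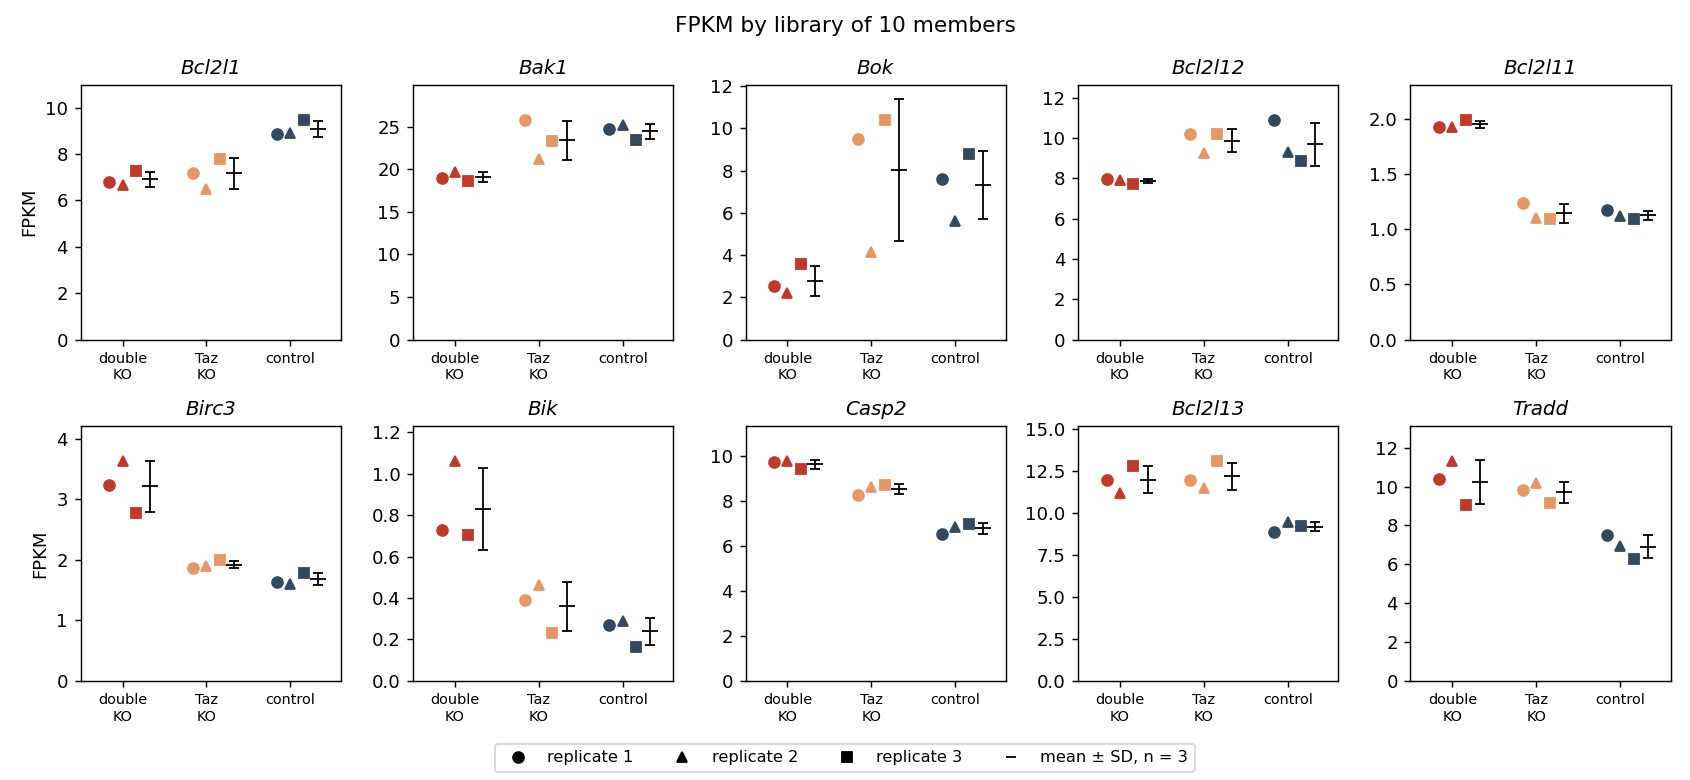
FPKM in every library for 10 members, with the mean ± SD (n = 3) beside each group and the marker shape giving the replicate number. Double KO stands apart from both other groups for Bok, Bcl2l11, Birc3 and Bik, whereas both KO groups stand above control for Casp2, Bcl2l13 and Tradd and below it for Bcl2l1.

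Of the 8 BH3-only genes, 7 were tested and Bcl2l11 alone changed. Bcl2l11 encodes BIM, a potent activator that binds all pro-survival proteins. It had 1.93, 1.93 and 1.99 FPKM in double KO, 1.24, 1.10 and 1.09 in Taz KO, and 1.17, 1.12 and 1.09 in control libraries, from 161 to 371 recovered reads. The double KO libraries were all above the rest, while Taz KO and control overlapped. Its double KO mean was 1.73 times that of control. The log2 fold change was 0.59 (SE 0.11, adjusted p = 0.00629) against control and 0.58 (SE 0.11, adjusted p = 0.0133) against Taz KO. The call against control was made in all 9 fits with 1 library left out. Against Taz KO it was lost without double KO 3 or Taz KO 3 (adjusted p up to 0.0531).

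Bik, a BH3-only gene whose product acts at the endoplasmic reticulum, moved the same way at a far lower level. It was below the level tested, with 0.729, 1.06 and 0.703 FPKM in double KO, 0.388, 0.461 and 0.231 in Taz KO, and 0.267, 0.287 and 0.164 in control libraries. These values came from 13 to 24 reads in double KO, 4 to 10 in Taz KO and 3 to 6 in control libraries. All double KO values were above all others, and Bik was singled out after its values were seen. In the fit without a filter on low values the difference was 0.84 (SE 0.15, adjusted p = 0.0122) against control. It was 0.63 (adjusted p = 0.0569) against Taz KO, and 0.00956 with the replicate block.

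The remaining BH3-only genes did not pass in any comparison over all 9 libraries. Bid, the most abundant of them and the link from death receptors to mitochondria once cleaved, had 26.9, 17.9 and 29.8 FPKM in double KO, 27.0, 18.5 and 30.6 in Taz KO, and 20.5, 18.9 and 21.2 in control libraries. Libraries 1 and 3 of both KO groups were above every control library, and library 2 of each KO group was below them all. The difference of double KO from control was 0.27 (SE 0.22, adjusted p = 0.392). With numbers 1 and 3 alone, Bid passed at 0.43 (adjusted p = 0.00798) in double KO and at 0.45 (adjusted p = 0.0439) in Taz KO against control. Bid lies on chromosome 6, one of those shifted as a whole. The p53 targets Bbc3 (PUMA) and Pmaip1 (NOXA) averaged 12.5 ± 1.69 and 22.1 ± 2.94 FPKM in double KO, 11.9 ± 1.09 and 21.6 ± 2.99 in Taz KO, and 13.2 ± 1.46 and 21.6 ± 3.85 in control cells. Their differences from control were -0.08 (adjusted p = 0.682) and 0.04 (adjusted p = 0.858) in double KO, and Trp53 itself gave -0.02 (adjusted p = 0.934). Bad, Bmf and Hrk, which neutralise pro-survival proteins, differed from control by -0.02, 0.02 and -0.04 in double KO, with adjusted p-values of 0.942, 0.970 and 0.937.

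The 2 further BCL2 homologues changed in opposite directions without centring. Bcl2l12, an atypical BCL2 relative, had 7.95, 7.92 and 7.74 FPKM in double KO, 10.2, 9.24 and 10.2 in Taz KO, and 10.9, 9.29 and 8.89 in control libraries. The double KO values lay below all others. Its log2 fold change was -0.28 (SE 0.09, adjusted p = 0.0448) against control and -0.31 (SE 0.09, adjusted p = 0.046) against Taz KO, and each call was kept in 2 of 9 fits with 1 library left out. Those were the fits without Taz KO 2 or control 3 for the first comparison, and without Taz KO 2 or control 1 for the second (adjusted p up to 0.153 and 0.158 in the others). Neither call held when chromosome-wide shifts were removed by the median deviation, as described with those shifts. Both were also lost in limma voom on the recovered reads (adjusted p = 0.0646 against control and 0.0711 against Taz KO). The fit without a filter on low values lost them too (adjusted p = 0.073 and 0.0762). Bcl2l12 overlaps Irf3 on the other strand by 1065 bases, and the strand setting of the counting is not given in the sources used here. Bcl2l13, a mitochondrial protein also known as a mitophagy receptor, had 12.0, 11.2 and 12.8 FPKM in double KO, 12.0, 11.5 and 13.1 in Taz KO, and 8.91, 9.45 and 9.23 in control libraries. Both KO groups lay wholly above control, with log2 fold changes of 0.37 (SE 0.08, adjusted p = 0.0106) in double KO and 0.39 (SE 0.08, adjusted p = 0.0549) in Taz KO. The replicate block gave 0.00703 in Taz KO, and leaving out control 1 lost the double KO call (adjusted p = 0.0508). The double KO call was also lost once the shift of chromosome 6 was removed (0.06 and 0.16, adjusted p = 0.511 and 0.0818). Bcl2l13 overlaps Bid by 913 bases on opposite strands of that chromosome.

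None of the 5 genes of mitochondrial release and the apoptosome passed without the replicate block on uncentred values of all 9 libraries. Cycs, which encodes cytochrome c, had 14, 6.64 and 14.2 FPKM in double KO, 15.4, 8.43 and 16.8 in Taz KO, and 13.1, 10.9 and 15.9 in control libraries. Library 2 was the lowest of every group, and the difference of double KO from control was -0.25 (SE 0.33, adjusted p = 0.611). After the chromosome 6 shift was removed it was -0.55 or -0.46, depending on the method, and passed with the block (adjusted p = 0.00418 and 0.00972). Apaf1, the apoptosome scaffold, averaged 10.8 ± 0.885, 9.59 ± 0.660 and 10.8 ± 1.64 FPKM in double KO, Taz KO and control cells. Casp9, the initiator caspase it activates, averaged 9.44 ± 0.472, 9.79 ± 0.581 and 8.75 ± 0.372 FPKM in the same order, and its double KO difference was 0.10 (adjusted p = 0.326).

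The genes for the released IAP antagonists were both lower in every double KO library than in every control library. Htra2, a mitochondrial protease, had 6.85, 5.23 and 6.44 FPKM in double KO, 8.65, 6.86 and 9.76 in Taz KO, and 8.07, 7.84 and 8.24 in control libraries. Its difference from control in double KO was -0.37 (SE 0.13, adjusted p = 0.0761), and 0.00869 with the block. Against Taz KO it was -0.41 (SE 0.13, adjusted p = 0.0732), and 0.00688 with the block. Diablo (SMAC) had 6.06, 5.86 and 6.83 FPKM in double KO, 7.62, 6.42 and 7.51 in Taz KO, and 7.88, 6.90 and 8.08 in control libraries. The difference was -0.27 (SE 0.10, adjusted p = 0.078) against control, and 0.00676 with the block. Against Taz KO it was -0.19 (SE 0.10, adjusted p = 0.24), and 0.0368 with the block. Once the shift of chromosome 6 was removed, Htra2 passed against control without the block by both methods (-0.67 and -0.57, adjusted p = 0.0027 and 0.00328). With numbers 1 and 3 alone, Htra2 (-0.28, adjusted p = 0.0332) and Diablo (-0.29, adjusted p = 0.0257) also passed against control. Htra2 overlaps Aup1 on the other strand by 753 bases.

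Of the 5 IAP genes, Birc3 rose and the others did not pass without the replicate block over all 9 libraries. Birc3 encodes cIAP2, a ubiquitin ligase of TNF receptor and NF-κB signalling and a known NF-κB target. It had 3.23, 3.63 and 2.78 FPKM in double KO, 1.87, 1.90 and 1.99 in Taz KO, and 1.64, 1.60 and 1.79 in control libraries. Each double KO value exceeded every other, and each Taz KO value exceeded every control value. The log2 fold change was 0.76 (SE 0.11, adjusted p = 0.00199) against control and 0.61 (SE 0.11, adjusted p = 0.0107) against Taz KO, whereas Taz KO against control gave 0.15 (SE 0.11, adjusted p = 0.707). The call against control held in all 9 fits with 1 library left out, and that against Taz KO was lost without Taz KO 1 (adjusted p = 0.051).

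Birc3 lies next to the targeted locus. On chromosome 9 it occupies 7848699 to 7873186 on the minus strand, 58812 bases from Yap1 (7931999 to 8004596). Its paralogue Birc2, which encodes cIAP1, lies 94934 bases from Yap1 and averaged 20.9 ± 0.881 FPKM in double KO, 21.7 ± 1.96 in Taz KO and 20.0 ± 1.88 in control cells, with a double KO difference from control of 0.06 (adjusted p = 0.662). Tmem123, 137665 bases from Yap1, gave 0.20 (adjusted p = 0.172, and 0.015 with the block). Whether the position beside Yap1 plays a part in the Birc3 result was not tested.

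Birc5, which encodes survivin and serves mitosis as a subunit of the chromosomal passenger complex, was the most abundant IAP gene. It had 28.9, 22.1 and 30.1 FPKM in double KO, 36.9, 28.2 and 38.9 in Taz KO, and 35.9, 29.1 and 37.8 in control libraries. Library 2 was the lowest of each group, and within each number the double KO value was the lowest of the 3. The difference from control was -0.34 (SE 0.16, adjusted p = 0.154) without the block and passed with it (SE 0.04, adjusted p = 0.000578). Double KO against Taz KO gave -0.35 (SE 0.16, adjusted p = 0.183), and 0.00097 with the block. Xiap, the direct caspase inhibitor, averaged 12.8 ± 0.173, 12.4 ± 0.237 and 12.5 ± 0.607 FPKM in double KO, Taz KO and control cells, a difference from control of 0.04 in double KO (95% interval -0.11 to 0.18). Birc6, a very large ubiquitin-conjugating IAP, gave 0.19 (SE 0.10, adjusted p = 0.212). With numbers 1 and 3 alone, Birc5 (-0.32, adjusted p = 0.00635) and Birc6 (0.31, adjusted p = 0.015) passed in double KO against control. Against Taz KO they gave -0.36 (adjusted p = 0.00528) and 0.27 (adjusted p = 0.0264) in that fit.

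Casp2 rose, and it was the most abundant of the 3 other caspases. It lies on chromosome 6, and once the shift of that chromosome was removed its call was lost by one method (0.17, adjusted p = 0.172) and kept by another (0.27, adjusted p = 0.0455). It encodes an initiator caspase activated through the PIDDosome. Its values were 9.73, 9.76 and 9.41 FPKM in double KO, 8.27, 8.63 and 8.69 in Taz KO, and 6.52, 6.85 and 6.99 in control libraries. The 3 groups did not overlap, with double KO highest and control lowest. Against control the change was 0.48 (SE 0.06, adjusted p = 0.00138) in double KO and 0.31 (SE 0.06, adjusted p = 0.056) in Taz KO, and 0.00968 with the block for Taz KO. Double KO against Taz KO gave 0.17 (SE 0.06, adjusted p = 0.113), and 0.036 with the block. Casp6, an executioner caspase, averaged 3.54 ± 0.689, 3.64 ± 0.895 and 4.13 ± 0.586 FPKM in double KO, Taz KO and control cells, without passing. Casp8, the initiator caspase of death receptors, was below the level tested at 1.21 ± 0.235, 0.684 ± 0.228 and 0.669 ± 0.125 FPKM. Its double KO libraries were all above the others, and the fit without a filter gave 0.55 (SE 0.18, adjusted p = 0.106) against control.

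Among the 4 adaptors, Tradd rose, a call lost once the shift of chromosome 8 was removed (0.18 and 0.22, adjusted p = 0.317 and 0.277). Tradd encodes the TNF receptor adaptor that recruits RIPK1. It had 10.4, 11.3 and 9.04 FPKM in double KO, 9.82, 10.2 and 9.13 in Taz KO, and 7.48, 6.92 and 6.29 in control libraries. Both KO groups lay above control and overlapped each other. Its log2 fold change was 0.54 (SE 0.10, adjusted p = 0.00574) in double KO and 0.47 (SE 0.10, adjusted p = 0.0649) in Taz KO against control, and 0.00413 with the block for Taz KO. Fadd, which bridges death receptors to Casp8, averaged 2.11 ± 0.083, 1.77 ± 0.0514 and 1.87 ± 0.170 FPKM in double KO, Taz KO and control cells, and Ripk1 averaged 1.61 ± 0.406, 1.21 ± 0.407 and 1.41 ± 0.227 FPKM. Neither passed. Cflar, whose product FLIP restrains Casp8, was below the level tested at 0.856 ± 0.181, 0.849 ± 0.189 and 0.961 ± 0.146 FPKM.

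Loss of Taz alone moved no member past the threshold without the replicate block, against 1.28% of all genes. At an unadjusted p under 0.05 there were 4 of 30 members (13.3%, against 12.8% of all genes), 3 higher (Bcl2l13, Casp2 and Tradd) and 1 lower (Bcl2l1). The same 4 passed the adjusted threshold with the replicate block (13.3%, against 11.8% of all genes, of which 7.78% higher and 4.05% lower), and limma voom on the recovered reads called Bcl2l13 alone (3.33%, against 1.51%). With numbers 1 and 3 alone, Bcl2l13 and Bid passed (6.67%, against 3.62%). Groups did not overlap for 6 of 30 members (20.0%), against 18.7% of all genes. Median log2 fold changes were 0.01 over the members and 0.01 over all genes. The double KO and Taz KO comparisons with control share the same control libraries, so the values of these 4 genes in both are only set side by side.

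Loss of Yap on top of Taz was read from double KO against Taz KO, which share no library. Bcl2l11 and Birc3 rose and Bok and Bcl2l12 fell, 4 of 30 members (13.3%), against 13.9% of all genes, of which 6.42% higher and 7.45% lower. With the block, 3 rose and 6 fell, with Casp2 joining the higher ones and Bak1, Birc5, Diablo and Htra2 the lower ones, against 16.8% and 25.6% of all genes, 42.4% in all. Groups did not overlap for 9 of 30 members (30.0%), against 30.6% of all genes. The median was -0.01 over the members and -0.04 over all genes. Bcl2l1, Bcl2l13 and Tradd, which are among the 4 genes named for Taz KO against control, gave -0.05, -0.02 and 0.07 here, with 95% intervals of -0.23 to 0.14, -0.20 to 0.16 and -0.15 to 0.29.

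The chromosomes whose tested genes were shifted as a whole carry 7 members. In double KO against control the median log2 fold change was 0.19 on chromosome 6, 0.30 on chromosome 8 and 0.11 on chromosome 14, against -0.09 to 0.00 on 17 other chromosomes (autosomes and X). In Taz KO against control the medians were 0.21, 0.35 and 0.10, against -0.03 to 0.02, and in double KO against Taz KO they were -0.01, -0.04 and 0.00. Bid, Bcl2l13, Cycs, Htra2 and Casp2 are on chromosome 6, Tradd on chromosome 8 and Bcl2l2 on chromosome 14. These shifts were removed in 2 ways, over the 11017 tested genes with a chromosome.

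The first way centred each gene on the median log2 level of its chromosome in each library. The double KO differences from control were then 0.06 (adjusted p = 0.511) for Bcl2l13, 0.17 (adjusted p = 0.172) for Casp2 and 0.18 (adjusted p = 0.317; 0.049 with the block) for Tradd. Htra2 passed at -0.67 (adjusted p = 0.0027) against control and at -0.47 (adjusted p = 0.0183) against Taz KO. Bcl2l11, Birc3, Bcl2l1, Bak1, Bok and Bcl2l12, on other chromosomes, kept their calls. In all, 2 members rose and 5 fell in double KO against control (23.3%), against 9.27% and 15.0% of all genes so treated, 24.3% in all.

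The second way, added after the first was seen to move genes by more than the median change of their chromosome, subtracted the median deviation of the chromosome's genes from their own means. Casp2 then kept its call at 0.27 (SE 0.08, adjusted p = 0.0455), so that call depended on how the shift was removed. Bcl2l13 gave 0.16 (adjusted p = 0.0818; 0.0236 with the block) and Tradd 0.22 (adjusted p = 0.277; 0.014 with the block). Htra2 again passed, with differences of -0.57 from control (adjusted p = 0.00328) and -0.41 from Taz KO (adjusted p = 0.0195). Bcl2l12 did not pass, with differences of -0.20 from control (adjusted p = 0.0838; 0.0327 with the block) and -0.26 from Taz KO (adjusted p = 0.0512; 0.0146 with the block). Bcl2l11, Birc3, Bcl2l1, Bak1 and Bok kept their calls against control. That made 3 higher and 4 lower (23.3%), against 12.4% and 12.4% of all genes, 24.8% in all.

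Taz KO against control had 0 calls among members after either centring (0.454% and 0.408% of all genes). With the block, Bcl2l1 alone passed in both (-0.30, adjusted p = 0.0352, and -0.31, adjusted p = 0.022), against 4.74% and 4.83% of all genes. The second centring with the block also called Cycs (-0.46, adjusted p = 0.00972), Casp9 (0.17, adjusted p = 0.0287) and Birc6 (0.25, adjusted p = 0.0396) in double KO against control and Ripk1 in double KO against Taz KO (0.35, adjusted p = 0.0404), and no longer Bax against control (-0.12, adjusted p = 0.129). The origin of the chromosome-wide shifts was not tested, and they cannot be told apart from changes of these single genes.

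**Figure D4:**
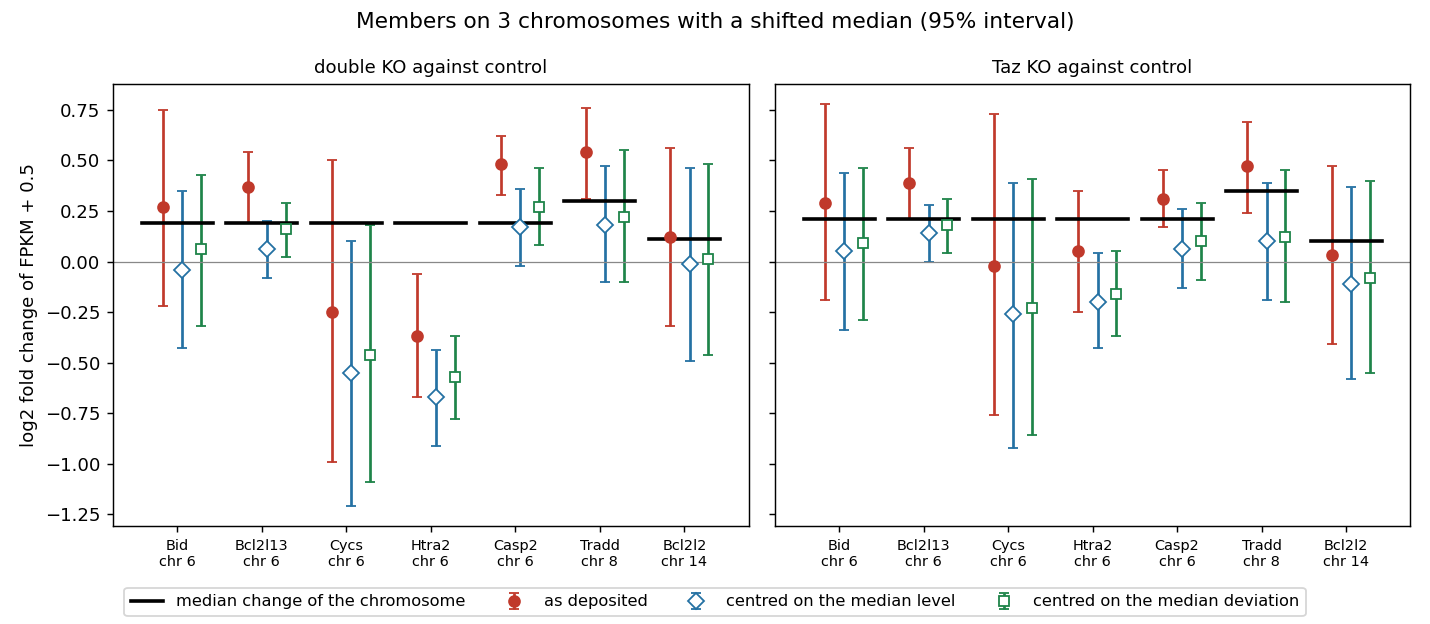
Log2 fold change of the 7 members on chromosomes 6, 8 and 14 in double KO and in Taz KO against control, with 95% intervals, as deposited (circles), after centring on the median level of the chromosome (diamonds) and on its median deviation (squares). Black bars mark the median change of the chromosome; both centrings bring Bcl2l13, Casp2 and Tradd towards 0 and lower Htra2, to -0.67 and -0.57 against -0.37 as deposited in double KO, and to -0.20 and -0.16 against 0.05 as deposited in Taz KO.

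Libraries numbered 2 differed from the others of their group across much of the set. Among the 30 tested members, library 2 was the lowest of all 3 groups for 9 (30.0%) and the highest for 5 (16.7%), against 31.8% and 19.6% of all tested genes. Bax, Bad, Bid, Cycs and Ripk1 were lower in every library numbered 2 than in any other, with Cycs at 6.64 to 10.9 against 13.1 to 16.8 FPKM. Bcl2l2, Bmf, Hrk, Casp6 and Cflar were higher in every library numbered 2, with Bmf at 5.98 to 7.18 against 3.54 to 4.45 FPKM. When only numbers 1 and 3 were fitted, 7 members rose and 7 fell in double KO against control, including the 9 called with all libraries, against 19.4% and 22.5% of all genes, 41.9% in all. What the number marks was not given, and its part in the levels was not tested.

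The balance of the family was expressed per library as the summed FPKM of 11 pro-death genes (effectors and BH3-only) over that of 5 pro-survival genes. It was 2.65, 1.88 and 2.73 in double KO, 3.04, 2.22 and 3.06 in Taz KO, and 2.36, 2.34 and 2.78 in control libraries. The 3 groups overlapped when the replicate number was ignored. On the log2 scale the ratio averaged 1.25 ± 0.30 in double KO, 1.46 ± 0.26 in Taz KO and 1.32 ± 0.14 in control cells. Mean differences were -0.06 for double KO minus control, 0.14 for Taz KO minus control and -0.20 for double KO minus Taz KO, each within 1 SD of a group, and no test was run on a score over chosen genes. Without the libraries numbered 2 they were 0.07, 0.25 and -0.18, so the sign of the double KO difference from control rested on those libraries. Taken by replicate number, double KO minus Taz KO was -0.20, -0.24 and -0.16 for numbers 1, 2 and 3 (mean -0.20 ± 0.04, SD), lower in double KO in all 3 pairs. Double KO minus control was 0.16, -0.32 and -0.03, and Taz KO minus control 0.36, -0.07 and 0.14, of mixed sign.

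The ratio mainly followed its most abundant genes. Bax made up 61.7 to 69.0% of the pro-death sum in each library. With Bax and Mcl1 left out, the ratio averaged 7.06 ± 0.958 in double KO, 7.74 ± 1.26 in Taz KO and 6.55 ± 0.123 in control cells. Effectors summed to 204 ± 28.8, 224 ± 35.1 and 238 ± 13.6 FPKM in double KO, Taz KO and control cells, and BH3-only genes to 73.3 ± 2.43, 71.5 ± 4.61 and 67.1 ± 4.83 FPKM. Over the pro-survival sum, effectors gave 1.33 to 2.04, 1.63 to 2.36 and 1.77 to 2.2, and all groups overlapped. BH3-only genes gave 0.549 to 0.695, 0.594 to 0.715 and 0.488 to 0.578, so every Taz KO library lay above every control library. The single genes that changed fell on both sides of the balance: the pro-survival Bcl2l1 and the effectors Bak1 and Bok were lower in double KO than in control, and the BH3-only Bcl2l11 was higher. In bulk RNA, fewer cells with a transcript and less transcript per cell cannot be told apart, and transcript levels do not show protein amounts or activation.

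**Figure D5:**
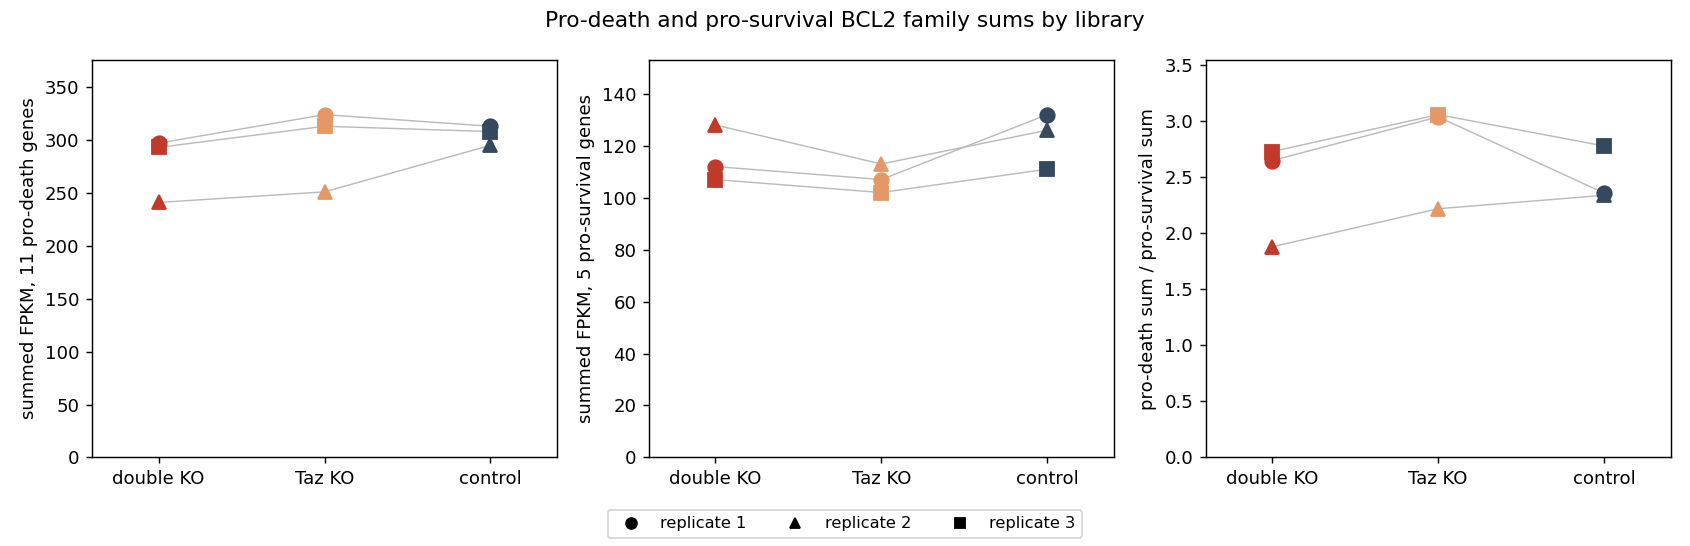
Summed FPKM of 11 pro-death genes (left) and 5 pro-survival genes (middle) and their ratio (right) in each library, with grey lines joining libraries of the same replicate number. The ratios run from 1.88 to 2.73 in double KO, 2.22 to 3.06 in Taz KO and 2.34 to 2.78 in control, and library 2 is the lowest of each group.

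A wider list of 77 symbols of apoptosis genes outside the set, with older and newer names of some genes, was counted in the same way. The table held 73 of these symbols and 48 were tested. In double KO against control 6 rose and 4 fell (20.8%, against 25.3% of all genes), with 11 and 14 in the fit with the replicate block (52.1%, against 52.4%). Taz KO against control had 0 calls, with 6 of 48 at an unadjusted p under 0.05 (12.5%, against 12.8% of all genes), 1 call by limma voom (2.08%, against 1.51%), and 4 higher and 2 lower with the block (12.5%, against 11.8%). Double KO against Taz KO had 5 higher and 6 lower (22.9%, against 13.9% of all genes), and 10 and 14 with the block (24 of 48, against 42.4% of all genes). Tnfrsf25, counted as higher in double KO against control and against Taz KO, reached the level tested only through the double KO group. Median log2 fold changes of the list were -0.03, -0.03 and 0.01 in the 3 comparisons.

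Among the 10 genes of that list called without the block in double KO against control, the 6 largest changes were those of Siva1, Perp, Tnfrsf10b, Dedd2, Tnfrsf1a and Tnfrsf25. Siva1, a pro-apoptotic adaptor of the receptor CD27, had 56.1, 47.8 and 54.2 FPKM in double KO, 90.6, 76.7 and 80.6 in Taz KO, and 102, 90.8 and 99.9 in control libraries. Its double KO values lay beneath the rest, and the difference from control was -0.89 (adjusted p = 0.000549). Perp, a p53 target of desmosomes, averaged 8.38 ± 1.33 FPKM in double KO, 3.34 ± 0.834 in Taz KO and 4.85 ± 0.815 in control cells, a rise of 0.73 (adjusted p = 0.0215). The TRAIL receptor gene Tnfrsf10b averaged 22.3 ± 2.43, 15.8 ± 0.774 and 13.9 ± 1.4 FPKM in the same order and rose by 0.66 (adjusted p = 0.0027), or 0.53 and 0.56 after centring on the chromosome's median level and median deviation (adjusted p = 0.00514 and 0.00625). Dedd2, a death effector domain protein, rose by 0.60 (adjusted p = 0.00331). The TNF receptor gene Tnfrsf1a, on chromosome 6, rose by 0.57 (adjusted p = 0.0293), but gave 0.27 (adjusted p = 0.32) and 0.37 (adjusted p = 0.204) after these centrings. Tnfrsf1b, a further TNF receptor gene, gave 0.60 without passing (adjusted p = 0.0672; 0.000386 with the block). Tnfrsf25, another death receptor, averaged 1.38 ± 0.119 FPKM in double KO, 0.815 ± 0.0628 in Taz KO and 0.861 ± 0.0653 in control cells. It thus reached the level tested only through the group in which it was high, and its values are given as a description. The difference from control was 0.47 (adjusted p = 0.0341), and 0.41 (adjusted p = 0.0514) and 0.53 (adjusted p = 0.021) after these centrings.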

How the data were processed

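Poly(A) RNA of 9 mouse embryonic stem cell libraries was sequenced after directional preparation, per the labels' protocols. The authors deposited FPKM values per gene. Tools named in the submitters' processing notes are DESeq2, HTSeq 0.6.1 and TopHat2 2.1.1, with build mm10 and no roles. Annotation, strand setting and filters: not given in the sources used here. As a limit, reads of overlapping genes or close paralogues may be shared.

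For 24621 genes above 0, the deposited values were whole-number multiples of a per-gene unit (tolerance 0.001), which gave the recovered reads. Such reads are the smallest whole numbers possible. The test was limma (version 3.58.1; R 4.3.3) applied to log2(FPKM + 0.5), which understates changes of low genes. All 9 libraries entered a single model of group means, leaving 6 residual degrees of freedom, or 4 with a block. It covered the 11674 genes averaging 1 FPKM or more, two-sided, with Benjamini-Hochberg adjustment and a threshold of 0.05. All adjusted p-values are from this limma test unless a setting is named. The method was tested on simulated counts drawn independently for each gene and library. They held no replicate-number effect and no chromosome-wide shift, so that test does not cover these features of the data. Gene positions were taken from GENCODE M21 on GRCm38, the assembly also called mm10, and promoter sequence from RefSeq on GRCm38.p6.

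Deviations from group means correlated at 0.192 to 0.711 in all 9 pairs of libraries with the same replicate number, and at -0.688 to 0.394 in 18 pairs with different numbers. The numbers were therefore taken to pair the libraries, from the values and not from the labels, and the blocked value is given where it changes a call.

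Members, lists and tests were chosen with earlier results of these data known. Members with an adjusted p under 0.05 in any comparison, with or without the block, and the most abundant member of each role have their values given in every library. From the wider list, up to 6 changed genes with the largest double KO difference from control are named. Alternatives were other pseudocounts, filters, scalings, the replicate block, chromosome centring and leaving out libraries. Limma voom on recovered reads, equal column totals, centring on a chromosome's median deviation, a block with centring or without a filter, and fits of numbers 1 and 3 alone were added after seeing the data. Every column of the table belonged to a library analysed here.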

Additional observations from a re-analysis of the deposited data

How the results depend on the processing

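The median of all genes moved by at most 0.07 between scalings. For double KO against control (5 members higher, 4 lower, 2948 genes passing), the replicate block gave 8 lower members and 6112 genes, with 7 lower and 6178 genes when the filter was also dropped. A filter of 5 FPKM gave 3 higher. Centring on the chromosome's median level gave 2 higher, and with the block 3 higher, 9 lower and 5604 genes; centring on its median deviation gave 3 higher, and with the block 8 lower and 5592 genes. Numbers 1 and 3 alone gave 7 lower and 4889 genes, and limma voom 3 lower and 3015 genes. Leaving out 1 library gave 4 to 6 higher, 1 to 5 lower and 1505 to 3568 genes. For Taz KO against control (0 higher, 0 lower, 150 genes), the block gave 3 higher, 1 lower and 1381 genes, and 3, 1 and 843 without the filter. A filter of 5 FPKM gave 2 higher, and quantile normalisation, limma voom and equal column totals gave 1 each. Fitting only the 6 libraries compared gave 88 genes. The centrings gave 50 and 45 genes, and with the block 1 lower member each and 522 and 532 genes. Numbers 1 and 3 alone gave 2 higher and 423 genes. Leaving out 1 library gave 0 to 2 higher, 0 lower and 11 to 230 genes. For double KO against Taz KO (2 higher, 2 lower, 1620 genes), the block gave 6 lower and 4947 genes, and 4 higher, 5 lower and 4424 genes without the filter. No filter gave 0 lower, a filter of 5 FPKM 0 higher, and the 6 libraries compared 1 higher, 0 lower and 635 genes. The centrings with the block gave 6 and 5 lower and 4782 and 4695 genes, and limma voom and equal column totals each 1 lower. Numbers 1 and 3 alone gave 4 higher, 5 lower and 4277 genes, and leaving out 1 library 1 to 3 higher, 0 to 4 lower and 482 to 2648 genes. The cause of these moves was not tested, except that a filter of 5 FPKM tests fewer genes and leaving out libraries gives fewer samples. Over the single members called with or without the block, 305 values under other settings kept direction and call, 60 gained a call, 20 lost it and Bax reversed under quantile normalisation (0.05, double KO against control). Leave-one-out fits kept 197, gained 5 and lost 32. The log2 balance ranged with 1 library left out from -0.16 to 0.11 (double KO against control), 0.06 to 0.29 (Taz KO against control) and -0.35 to -0.03 (double KO against Taz KO). On uncentred values with the filter, the replicate block changed no member call beyond those named. With 3 libraries per group and 0 to 10 reads behind Bcl2 and Bcl2l10, their changes were not detectable at this depth.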
